A study of Mus musculus with 39 samples.

Results

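The 5 short nuclear RNAs followed through the RNA-seq of neocortical nuclei were Rmrp, Rnu11, Rnu12, Scarna6 and Scarna3b. They are 5 of the 24421 genes counted, and they were picked by name after the difference between 2 isolation techniques, INTACT and FANS, had been seen in the same libraries. Their values and technique differences are therefore given as a description with no test, and tests were kept for measures that did not choose them.

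Rmrp is the RNA component of RNase MRP, a nucleolar ribonucleoprotein that cuts precursor ribosomal RNA and shares most of its proteins with RNase P. Rnu11 and Rnu12 encode the U11 and U12 small nuclear RNAs of the minor spliceosome, which removes the rare U12-type introns: U11 recognizes the 5′ splice site and U12 the branch site. Scarna6 and Scarna3b are small Cajal body-specific RNAs (scaRNAs), which guide the chemical modification of spliceosomal small nuclear RNAs in Cajal bodies and are usually cut out of an intron of a host gene. All are made and act in nuclei, neuronal nuclei included.

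All groups came from adult mice of both sexes that carried Arc-CreERT2, a tamoxifen-inducible Cre under the promoter of the activity-regulated gene Arc, together with the reporter R26 CAG-Sun1-sfGFP-Myc, which puts a fluorescent tag on the nuclear membrane after recombination. Every mouse was given tamoxifen before a social interaction and killed on the third day after it, and no untagged or untreated group enters the comparison. In FANS, tagged nuclei were sorted by flow cytometry on DAPI and GFP, and in INTACT they were pulled down from the nuclei suspension on magnetic beads with an antibody to GFP. Nuclear RNA was made into NuGEN Ovation SoLo libraries in 3 batches: 4 FANS and 4 INTACT libraries in batch 1, 7 and 4 in batch 2, and 7 and 5 in batch 3. Each batch was 1 distinct biological source, so the spread between libraries may not include that between animals. RNA integrity was higher in batch 1 than in the other batches, and integrity and batch cannot be told apart here.

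Between 4205665 and 11028713 reads were counted on genes per library. INTACT libraries of batch 1 were the deepest (8621143 to 11028713 reads, against 4853224 to 6066759 in FANS), while in batches 2 and 3 the ranges of the techniques overlapped. Unique reads that were assigned to no gene feature may include reads in introns of annotated genes. Their median share was 83.2% in FANS and 74.1% in INTACT in batch 1. It was 82.3% and 80.6% in batch 2, and 83.6% and 84.8% in batch 3. The labels call the material activated neuronal nuclei. Summed over 6 markers of excitatory neurons, normalized counts were 6773 to 9146 per library, but 5 astrocyte markers summed to between 4896 and 7625 per library, and 6 oligodendrocyte markers to between 1589 and 15448. Oligodendrocyte markers differed with technique: 5 of 6 were called higher in INTACT in batch 1, 3 of 6 in batch 2 and 0 of 6 in batch 3, beside 4.03%, 0.0941% and 0.0139% of all genes called higher. Astrocyte markers were called higher in 2 of 5 in batch 1 and 1 of 5 in batch 2. In batch 1, 1 of 3 inhibitory neuron markers was called higher and 1 of 3 microglia markers lower, beside 3.94% of all genes called lower.

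The spans of the RNAs on mm10 (RefSeq, and GENCODE M21 for Rnu11) are printed 5′ to 3′, because length and overlaps bear on how each was counted. Rmrp lies at chr4:43492785-43493059, minus strand, and has 275 bases. Rnu12 lies at chr15:83149645-83149794, plus strand, with 150 bases. Both are separate transcription units, and each starts back to back with a protein-coding gene: Ccdc107 starts 281 bases from Rmrp and Poldip3 starts 267 bases from Rnu12. Rnu11 lies at chr4:132270080-132270213, minus strand, with 134 bases in GENCODE, whereas the RefSeq span holds 108 bases and lacks the 5′ end. In the U11 sequence, capitals mark AAAAGG, which pairs with CCTTTT of the U12-type 5′ splice site, and the Sm site ATTTTTTG, where the ring of Sm proteins binds. In the U12 sequence, capitals mark GTAAGGAA, which pairs with the branch site of U12-type introns, and the Sm site.
Rmrp: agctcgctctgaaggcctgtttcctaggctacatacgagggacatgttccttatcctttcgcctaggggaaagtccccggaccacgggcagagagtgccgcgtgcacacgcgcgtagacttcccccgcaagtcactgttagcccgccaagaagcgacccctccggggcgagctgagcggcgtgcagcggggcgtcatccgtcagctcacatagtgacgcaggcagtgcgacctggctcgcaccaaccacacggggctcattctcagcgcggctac
Rnu11: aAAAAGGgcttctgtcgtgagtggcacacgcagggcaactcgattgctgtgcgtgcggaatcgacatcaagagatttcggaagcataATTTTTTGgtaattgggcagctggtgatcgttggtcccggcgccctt
Rnu12: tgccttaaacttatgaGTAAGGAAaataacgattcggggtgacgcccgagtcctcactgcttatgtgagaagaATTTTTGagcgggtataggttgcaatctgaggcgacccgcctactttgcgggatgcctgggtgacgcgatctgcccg

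Scarna6 (chr1:87784571-87784818, plus strand, 248 bases) lies in an intron of Atg16l1, an autophagy gene, 2828 bases after the start of a 4133-base intron. Scarna3b (chr12:80391614-80391737, minus strand, 124 bases) lies in intron 5 of the 8 introns of Dcaf5, which encodes an adaptor of a ubiquitin ligase. Both scaRNAs have the strand of their host, so reads of the unspliced host transcript over these spans cannot be told apart from theirs. The capitals in Scarna3b mark 64 bases that the annotation also gives to the microRNA gene Mir1843a. Reads that fell wholly or partly in this stretch may have been set aside as ambiguous, so the level of Scarna3b may be understated. Mir1843a itself had normalized counts of 0 to 2.06 per library.
Scarna6: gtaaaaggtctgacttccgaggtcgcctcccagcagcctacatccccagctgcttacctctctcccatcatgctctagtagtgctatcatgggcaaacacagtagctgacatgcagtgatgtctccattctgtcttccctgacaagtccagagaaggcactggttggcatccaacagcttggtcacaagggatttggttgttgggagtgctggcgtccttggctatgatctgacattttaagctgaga
Scarna3b: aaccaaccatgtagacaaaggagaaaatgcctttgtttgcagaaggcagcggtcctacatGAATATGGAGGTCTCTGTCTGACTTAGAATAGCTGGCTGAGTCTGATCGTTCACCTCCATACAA

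Copies of these RNAs elsewhere in the genome also limit what could be counted, since only uniquely aligned reads were kept. Rnu12 had 3 further matches of at least 95% identity over at least 60 bases, the longest over 150 bases at 95.3% identity. Rnu11 had 3 further matches of at least 90% identity over at least 80% of its length. Neither Rmrp, Scarna6 nor Scarna3b had such a match. The levels of Rnu11 and Rnu12 may thus be understated, by the same rule in every library.

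Compared per 100 bases of RefSeq length, the order of read levels was nearly fixed. How well RNAs of each length were recovered in purification and library preparation was not measured. The order of reads therefore need not be the order of amounts in nuclei. Rmrp was highest, at medians of 384, 265 and 285 RPM per 100 bases (RPM, reads scaled to the reads on genes of the library) in batches 1, 2 and 3, which ranked it 3, 4 and 5 among all genes tested with a length. Rnu12 followed with medians of 68.9, 61.0 and 86.6, then Scarna3b with 32.7, 14.9 and 24.4 on the same scale. Rmrp was above Rnu12, Rnu12 above Scarna3b and Scarna3b above Scarna6 in all 31 libraries. Scarna6 (medians 13.0, 8.62 and 10.2) and Rnu11 (5.105, 5.998 and 6.723) came last, and this neighbouring pair was not ordered beyond its spread: Scarna6 was the higher in 8 of 8 libraries of batch 1, 7 of 11 of batch 2 and 8 of 12 of batch 3. With GENCODE lengths these counts were 8, 10 and 9. Values of Rnu11 rested on as few as 16 reads in a library, those of Rmrp on 1859 to 14551.

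Turning to the technique difference within each batch, Rmrp in batch 1 had normalized counts (reads divided by 1 size factor per library) of 5283, 7531, 7664 and 10193 in FANS and 7038, 7944, 9052 and 9664 in INTACT. The groups overlapped, and the log2 difference, INTACT minus FANS on the scale of log2(normalized count + 1), was 0.16 ± 0.11 (SE from limma). In batch 2 the 7 FANS libraries ran from 3868 to 8157 with a median of 6845, and the INTACT libraries held 3427, 3473, 4400 and 4501. All 4 INTACT libraries were thus under the FANS median and 2 were under every FANS library, with a log2 difference of −0.63 ± 0.13. In the 6 libraries of batch 2 whose numbers occur in both techniques it was −0.41. In batch 3 FANS ran from 3413 to 7282 with a median of 4601, whereas INTACT held 1908, 1976, 3197, 3786 and 4071. Of the 5 INTACT libraries 3 lay under every FANS library, replicates 3 and 4 far under the rest, and the log2 difference was −0.76 ± 0.16.

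Scarna6 was the RNA closest to this course. Batch 1 gave 153, 260, 287 and 354 in FANS and 202, 210, 217 and 313 in INTACT, overlapping groups with a log2 difference of −0.12 ± 0.16. Leaving out 1 library of batch 1 gave −0.36 (without FANS replicate 3) to 0.04 (without FANS replicate 2). Batch 2 gave 87.4 to 197 in FANS (median 140) and 63.8, 72.5, 86.9 and 109 in INTACT. Of these 4 INTACT libraries 3 were under the lowest FANS library, and the log2 difference was −0.83 ± 0.16, or −0.49 in the 6 libraries whose numbers occur in both techniques. Batch 3 gave 128 to 241 in FANS (median 141), and 56.5, 61.2, 106, 119 and 130 in INTACT. In all, 4 of 5 INTACT libraries were under every FANS library, with replicates 3 and 4 again lowest, and the log2 difference was −0.79 ± 0.17.

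Rnu12 overlapped between techniques in the first pair of batches. In batch 1 FANS held 546, 749, 792 and 878 and INTACT 596, 727, 802 and 822, with a log2 difference of 0.00 ± 0.10. In batch 2 FANS ran from 416 to 1173 (median 566) around the INTACT values of 508, 563, 576 and 736, with a log2 difference of −0.10 ± 0.17. Batch 3 differed: FANS ran from 631 to 2008 (median 1006), and INTACT held 321, 470, 508, 553 and 620. Here every INTACT library was under every FANS library, and the log2 difference was −1.09 ± 0.18, a ratio of 0.469.

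Rnu11, its partner in the U11/U12 particle, was measured on few reads. Batch 1 values were 39.5, 39.7, 42.4 and 58.9 in FANS and 27.7, 37.7, 46.7 and 55.8 in INTACT (log2 difference −0.13 ± 0.21). Batch 2 values were 33.7 to 66.1 in FANS (median 41.2) and 32.1, 33.1, 41.8 and 44.3 in INTACT (−0.19 ± 0.18 on the log2 scale). In batch 3 FANS spread 3.49-fold, from 27.7 to 96.5 with a median of 51.4, while INTACT held 16.1, 24.7, 32.5, 35.0 and 44.1. All 5 INTACT libraries were under the FANS median but 3 lay within the FANS range, and the log2 difference was −0.85 ± 0.26.

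Scarna3b had 207, 284, 322 and 372 in FANS and 268, 280, 311 and 334 in INTACT in batch 1, overlapping groups that differed by 0.04 ± 0.12 on the log2 scale. Batch 2 ran from 90.1 to 270 in FANS (median 151), and INTACT held 91.6, 92.4, 108 and 110. Every INTACT value lay under the FANS median yet above the lowest FANS library, with a log2 difference of −0.63 ± 0.18. Batch 3 ran from 154 to 375 in FANS (median 232), against 67.2, 80.2, 82.1, 83.2 and 99.9 in INTACT. The groups did not overlap, and the log2 difference of −1.39 ± 0.16 was a ratio of 0.382.

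**Figure D1:**
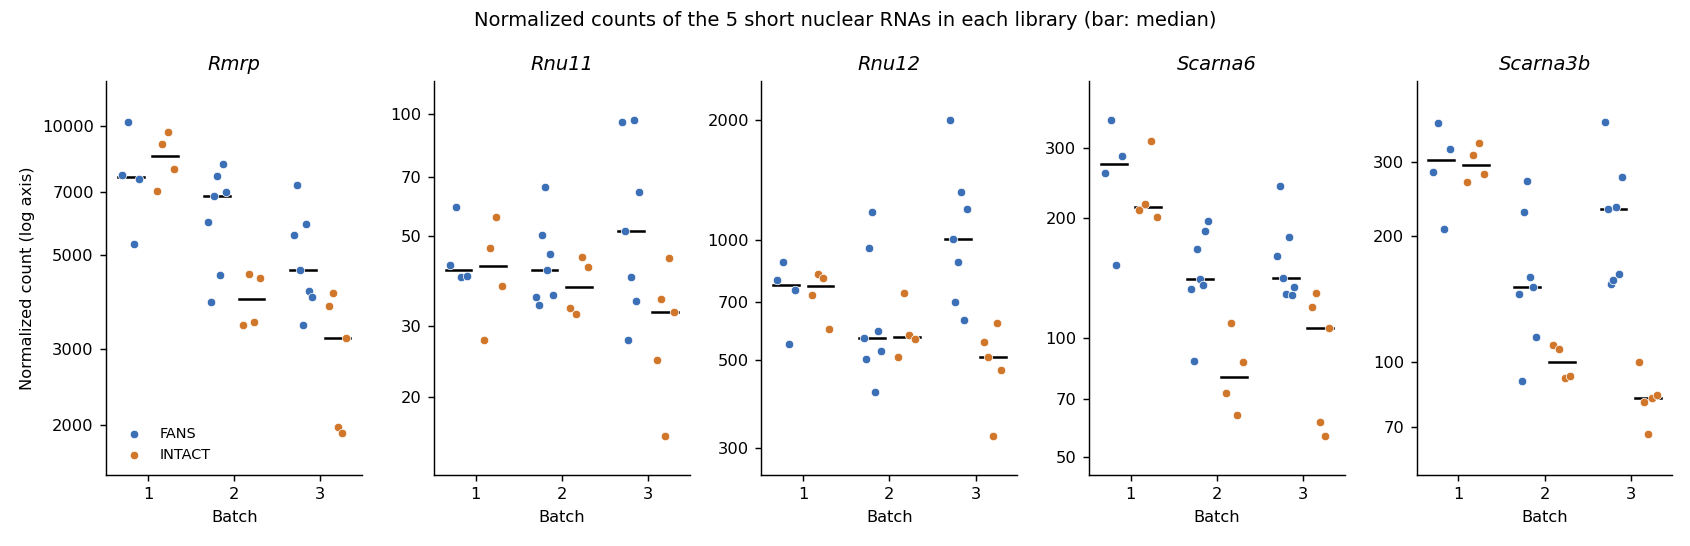
Normalized counts (log axis) of each RNA by batch, with 1 point per library, FANS in blue and INTACT in orange, and black bars at the medians. Groups overlap in batch 1 for every RNA, and in batch 3 all 5 INTACT libraries lie under all FANS libraries for Rnu12 and Scarna3b.

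Across the RNAs, Rmrp, Scarna6 and Scarna3b were lower in INTACT in batches 2 and 3, and Rnu12 and Rnu11 mainly in batch 3. The share of all genes tested with every INTACT library under every FANS library was 16.5% in batch 1, where 0 of the 5 RNAs did so, 1.4% in batch 2, with 0 of 5, and 0.589% in batch 3, with 2 of 5. Since these contrasts chose the RNAs, nothing is read from the counts. Oligodendrocyte markers summed in batch 1 to between 5710 and 7154 for FANS libraries and between 9363 and 9870 for INTACT libraries. The corresponding ranges were 6570 to 12904 and 12780 to 15448 in batch 2, and 1589 to 2187 and 1970 to 2464 in batch 3. With 5 of 6 of these markers called higher in batch 1, the differences of the RNAs lay between −0.13 and 0.16. With 3 of 6 in batch 2 they lay between −0.83 and −0.10, and with 0 of 6 in batch 3 between −1.39 and −0.76. The value of Rnu12 in batch 2 turned to 0.05 without FANS replicate 5. With values centred on technique, the share of unique reads in no gene feature had r of −0.57 with Rmrp over the 12 libraries of batch 3. That r was −0.53 with Scarna6 and between −0.14 and −0.03 with the other RNAs. In batch 1 the same r was strongest for Rnu11 (−0.47, with −0.36 for Rmrp and −0.17 for Scarna6), and in batch 2 for Rnu12 (−0.31, with −0.28 for Rmrp and −0.17 for Scarna6). These values share libraries and size factors. The part of these markers and of this share in the RNA values was not tested. In pooled nuclei, fewer nuclei that hold an RNA and less RNA per nucleus cannot be told apart.

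Host and neighbouring genes did not choose the RNAs and could be tested, with limma across all genes and Benjamini-Hochberg adjustment. Calls required a 1.5-fold change or more together with an adjusted p-value below 0.05. By limma over all libraries of a batch, 0 of the 4 were called, beside 3.94% of genes called lower and 4.03% higher in INTACT in batch 1, 0.0336% and 0.0941% in batch 2, and 0.346% and 0.0139% in batch 3. Atg16l1, host of Scarna6, had 540 to 685 normalized counts in FANS (median 598) and 632, 646, 648, 671 and 678 in INTACT in batch 3, a log2 difference of 0.11 ± 0.06 (limma adjusted p = 0.427). In batches 1 and 2 its differences were 0.09 ± 0.06 (limma adjusted p = 0.269) and −0.01 ± 0.07 (0.949). Of its 5 INTACT libraries of batch 3, 0 were under the FANS median. Dcaf5, host of Scarna3b, had 298 to 359 in FANS (median 330) and 274, 306, 307, 320 and 324 in INTACT in batch 3, where all 5 INTACT libraries were under the FANS median, as all 4 were in batch 1. Its log2 differences were −0.11 ± 0.07, −0.06 ± 0.08 and −0.10 ± 0.07 in batches 1, 2 and 3 (limma adjusted p = 0.191, 0.737 and 0.569).

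Poldip3, which encodes a protein of messenger RNA export and starts back to back with Rnu12, differed by 0.12 ± 0.08, −0.10 ± 0.09 and 0.04 ± 0.11 on the log2 scale in batches 1, 2 and 3 (limma adjusted p = 0.28, 0.635 and 0.929). Ccdc107, the neighbour of Rmrp, had 39.7, 42.3, 42.9 and 47.6 normalized counts in FANS and 50.5, 59.7, 73.4 and 75.4 in INTACT in batch 1, with no overlap. That log2 difference of 0.56 ± 0.17 passed the p-value (limma adjusted p = 0.0111) but, at 1.47-fold, not the fold required. Without INTACT replicate 2 or 4 the p-value was missed as well (limma adjusted p of Ccdc107 = 0.0526 and 0.0605). Without FANS replicate 1, or INTACT replicate 1 or 3, Ccdc107 was called (log2 differences of 0.6073, 0.5923 and 0.6715), as it was by edgeR (0.587). It was 0.13 ± 0.17 in batch 2 (limma adjusted p = 0.775) and 0.20 ± 0.19 in batch 3 (0.686). The technique difference of none of the 4 genes differed between batches by an interaction term in limma (lowest adjusted p = 0.323, for Ccdc107 between batches 1 and 3). Both divergent neighbours were added to the hosts after the annotation had been read.

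**Figure D2:**
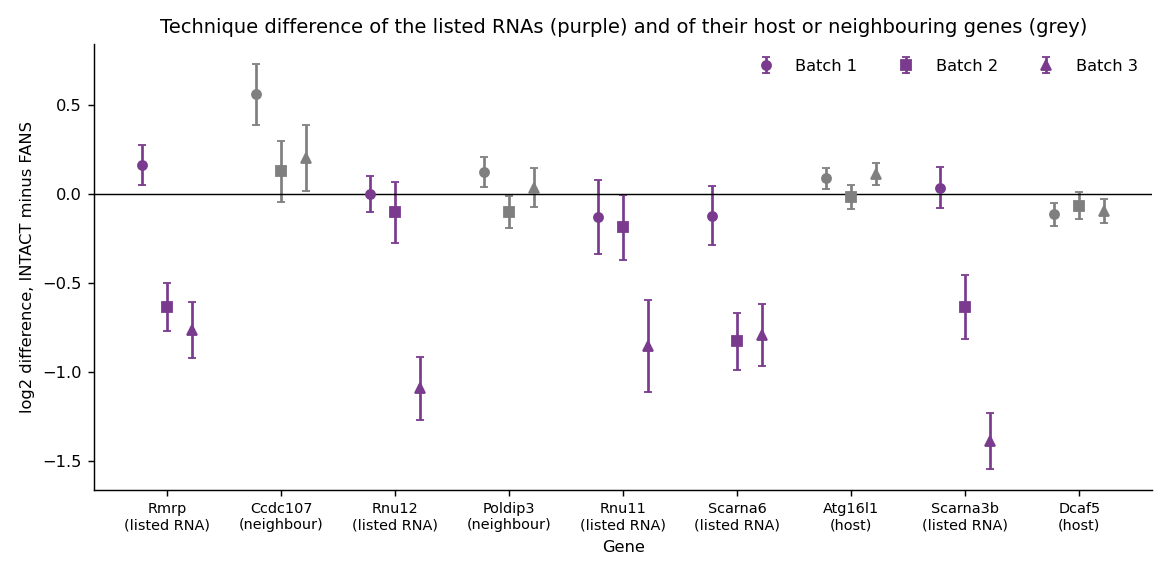
Log2 difference, INTACT minus FANS, with its SE from limma, for each RNA (purple) and its host or neighbouring gene (grey) in batches 1 (circles), 2 (squares) and 3 (triangles). In batch 3 the RNAs lie between −1.39 and −0.76, whereas the hosts and neighbours lie between −0.10 and 0.20. Host counts do not single out the introns that hold the scaRNAs.

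Among libraries of 1 technique and batch, the coefficient of variation was 22.2 to 35.6% for Scarna6 and 2.88 to 8.78% for Atg16l1 over the 6 groups. For Scarna3b it was 9.75 to 38.1% and for Dcaf5 3.51 to 9.99%, with the nearest values in INTACT of batch 2 (9.75% and 5.17%). Scarna6 had 55 to 472 reads per library and Atg16l1 492 to 1546, and counting error is part of these values. To see whether the RNAs varied together, log2 values were centred on the mean of their batch and technique, which removes the technique difference. Rmrp and Scarna6, which lie on different chromosomes, varied together with a Pearson r of 0.91 (Spearman rho 0.92) over the 31 libraries, and with r of 0.92, 0.82 and 0.97 within batches 1, 2 and 3. Rnu12 varied with Scarna3b (r = 0.83, rho 0.79) and with Rnu11 (r = 0.78, rho 0.74). Between these 2 sets the values were lower, from r of 0.54 for Rmrp with Scarna3b to 0.27 for Scarna6 with Rnu11, with 0.49 for Rmrp with Rnu12, 0.44 for Scarna6 with Scarna3b, 0.41 for Rmrp with Rnu11 and 0.35 for Scarna6 with Rnu12. Leaving out the 2 libraries farthest from the median of the first-named RNA gave 0.88 for Rmrp with Scarna6, 0.74 for Rnu12 with Scarna3b and 0.57 for Rmrp with Rnu12. Paired values come from the same libraries and size factors, and the libraries of a batch share a source, so no p-value is given.

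Single libraries, chosen here after their values were seen, differed in which RNAs were high or low. INTACT replicate 4 of batch 3 had the lowest Rmrp and Scarna6 of its group (1908 and 56.5) and the highest Rnu11 and Rnu12 (44.1 and 620), with Scarna3b in the middle (82.1). It also had the highest share of unique reads in no gene feature in its group, 85.5% against 84.4 to 84.9%. FANS replicate 1 of batch 3 was the highest of its group in Rnu12 and Scarna3b (2008 and 375), second highest in Rnu11 (95.6) and the third highest of 7 in Rmrp (5547). Other libraries moved in all 5 RNAs: INTACT replicate 3 of batch 3 lay between −0.81 and −0.28 from its group means on the log2 scale, and FANS replicate 3 of batch 1 between −0.72 and −0.17. In batch 1, with 8 libraries in all, the sets were not apart: Rmrp had r of 0.85 with Rnu12 and 0.96 with Scarna3b.

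**Figure D3:**
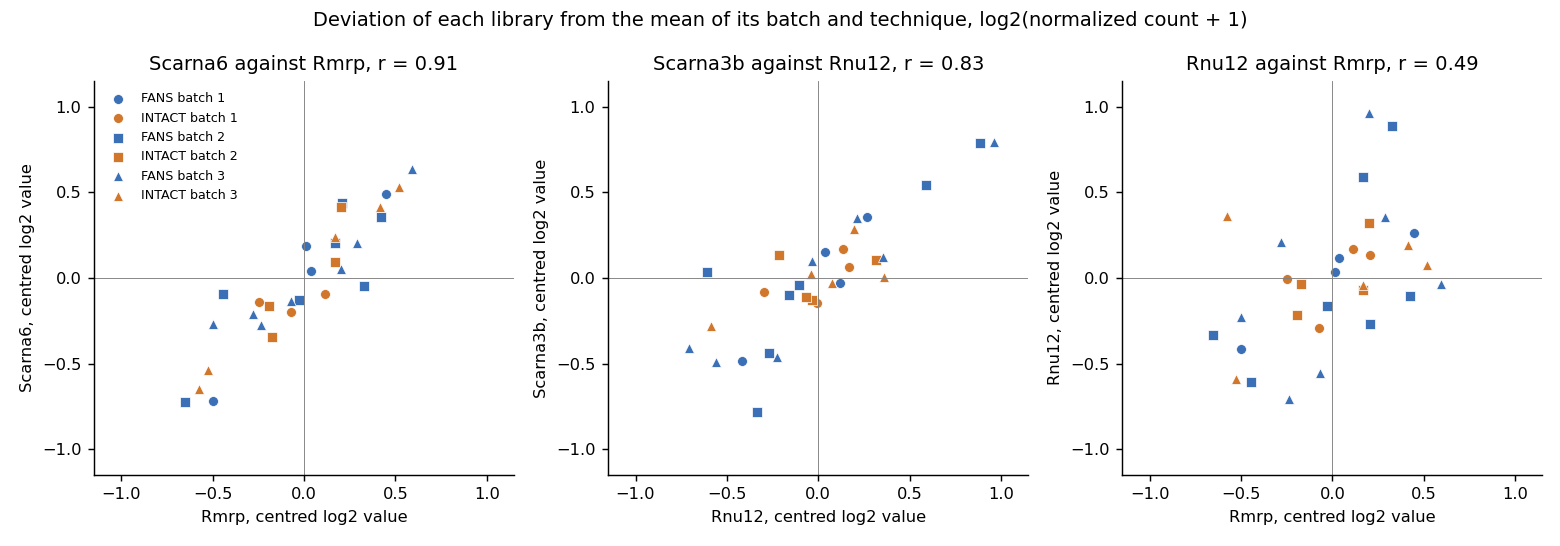
Deviation of each library from the mean of its batch and technique, in log2(normalized count + 1), for 3 pairs of RNAs, with FANS in blue, INTACT in orange and batches by marker. Points follow a line for Rmrp with Scarna6 (r = 0.91) and for Rnu12 with Scarna3b (r = 0.83), and scatter more for Rmrp with Rnu12 (r = 0.49).

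Genes with the most similar pattern were then sought among those with a mean of at least 50 normalized counts in every batch, by Pearson r of log2 values centred on the batch alone over the 31 libraries. This centring keeps the technique difference, the contrast by which the RNAs were chosen, so genes lower in INTACT in the same batches rank as alike and nothing is read from their kind. Most like Rmrp were Scarna6 (r = 0.93), Snora74a (0.86) and Snora23 (0.85), and most like Scarna6 were Rmrp, Snora74a (0.87) and Scarna10 (0.82). Snora15 led for Rnu12 (0.92) and Scarna3b (0.94). It was followed by Snord89 (0.91) and Scarna3b (0.87) for Rnu12, and by Snora81 (0.93) and Snora21 (0.91) for Scarna3b. Rnu11 was most like Rnu12 (0.84), Snora15 (0.83) and Snord89 (0.81).

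Length was followed further over 39 other small nucleolar and nuclear RNAs with a mean of at least 50, taking the longer of the RefSeq and GENCODE spans and values centred on batch and technique. The 16 RNAs of up to 100 bases had a median r of −0.27 with Rmrp and 0.23 with Rnu12, and 1 of 16 was closer to Rmrp. The 15 RNAs of over 100 and up to 150 bases had medians of 0.35 and 0.54, with 3 of 15 closer to Rmrp. Of the 4 RNAs of 151 to 200 bases 2 were closer to Rmrp, and all 4 of over 200 bases were, among them Rpph1, the RNA of RNase P (r = 0.78 with Rmrp and 0.25 with Rnu12), and Scarna13 (0.64 and 0.09). Snord17, at 238 bases, had negative values for both (−0.17 and −0.51), as had Snord15a at 148 bases (−0.11 and −0.33) and Snord15b at 145 bases (−0.14 and −0.27). All 16 RNAs of up to 100 bases are Snord genes, the C/D class of small nucleolar RNAs, so in that class of length the kind of RNA and its length cannot be told apart. Across the 39 RNAs, length and the excess of r with Rmrp over r with Rnu12 had a Spearman rho of 0.75, given as a description because RNAs of 1 library are not independent. By RefSeq length alone, an alternative added after seeing the data, rho was 0.63, 2 of 20 RNAs of up to 100 bases were closer to Rmrp, among them Scarna10 (325 bases in GENCODE but 71 in RefSeq), and so were 3 of 3 of over 200 bases. Among the 5 RNAs, Rmrp and Scarna6 have 281 and 265 bases, and Rnu11, Rnu12 and Scarna3b have 134, 151 and 139. They add nothing to this relation, since their own correlations had been seen and r with Rmrp and with Rnu12 defines the measure.

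**Figure D4:**
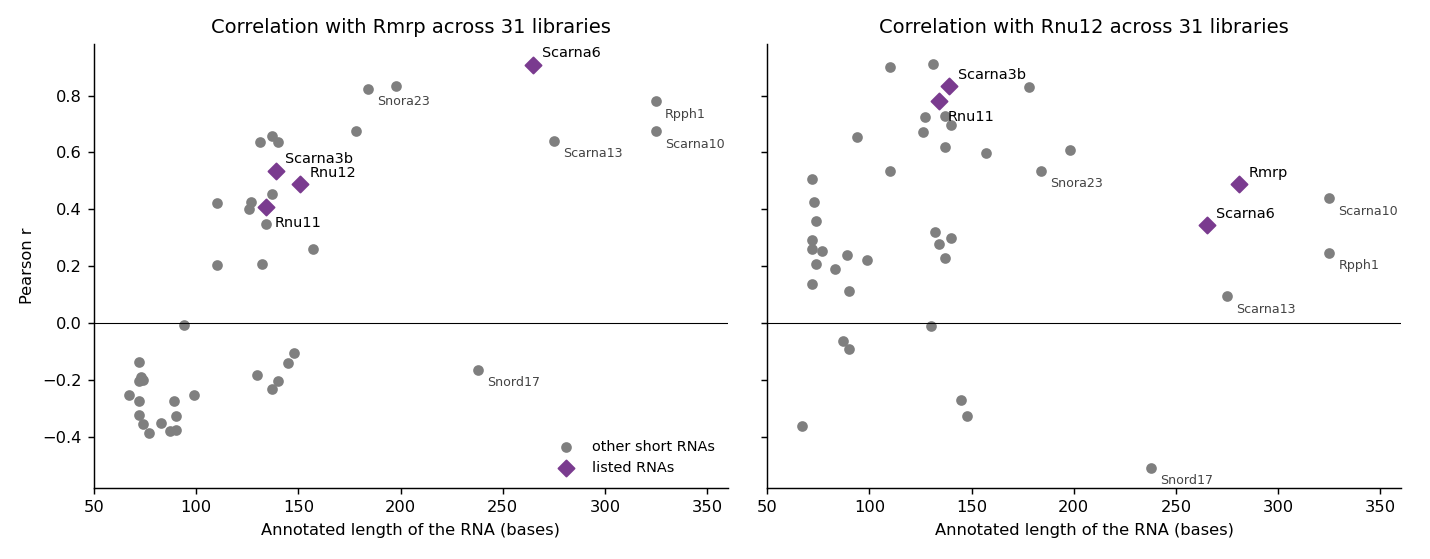
Pearson r with Rmrp (left) and with Rnu12 (right) over 31 libraries, on values centred on batch and technique, against annotated length in bases, for 39 other short RNAs (grey) and the listed RNAs (purple). RNAs of up to 100 bases have a median r of −0.27 with Rmrp. The listed RNA Scarna6, at 265 bases, has 0.91, a value seen before length was examined.

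Among the other short nuclear RNAs, a list of 17 genes in the tables of which 11 or 12 were tested, 2 were called lower and 3 higher in INTACT in batch 1 (limma, Benjamini-Hochberg), beside 3.94% and 4.03% of all genes tested. In batch 2, 0 were called by limma, edgeR or DESeq2, with 4 at an unadjusted p-value under 0.05, beside 0.0336% lower and 0.0941% higher of all genes. In batch 3, 3 of 11 were called lower and 0 higher, beside 0.346% and 0.0139% of all genes. The list's median log2 difference was 0.30 in batch 1, −0.09 in batch 2 and −0.55 in batch 3, where the medians of all genes were 0.01, 0.00 and 0.00. With 1 library of batch 1 left out, the number called higher there was 0 to 2 and lower 1 or 2, whereas 3 were called lower in batch 3 whichever library of that batch was left out. The number called higher in batch 1 was 0 without INTACT replicate 1, 2 or 3, and 1 without INTACT replicate 4 or FANS replicate 3 or 4.

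The 3 called in batch 3 were scaRNAs. Scarna3a, the paralog of Scarna3b by name, was at 194 ± 44.0 normalized counts over the 7 FANS libraries and 86.2 ± 25.8 over the 5 INTACT libraries (mean ± SD), which is a log2 difference of −1.18 ± 0.16 (limma adjusted p = 3.94e-05). Scarna10 fell by 0.81 ± 0.16 on the log2 scale (limma adjusted p = 0.00363), from 98.8 to 56.6. Scarna2 fell by 1.12 ± 0.23 (limma adjusted p = 0.00658), from 22.2 to 9.39, with an annotated length of 61 bases in RefSeq but 414 in GENCODE, so that what its count covers is not certain. Scarna2 was instead called higher in INTACT in batch 1 by 0.69 ± 0.26 (limma adjusted p = 0.0379). Also higher in batch 1 were Terc, the telomerase RNA, by 1.37 ± 0.53 (limma adjusted p = 0.0478), and Scarna17 by 1.09 ± 0.41 (limma adjusted p = 0.0387), both under 15 normalized counts. The number of the list called higher in batch 1 was 3 by limma, 1 by edgeR and 0 by DESeq2 or by limma without a filter, and the number called lower was 2 by limma and edgeR and 1 by DESeq2. Lower in batch 1 were Snord118, the U8 RNA of ribosomal RNA processing, by −1.005 ± 0.211 (limma adjusted p = 0.000493), and Scarna8 by −0.84 ± 0.32 (limma adjusted p = 0.0418). Rpph1, which pairs with Rmrp in sharing its proteins, was not called in any batch, in batch 1 because the change was under 1.5-fold: its log2 differences were 0.42 ± 0.12, −0.07 ± 0.12 and −0.38 ± 0.14 (limma adjusted p = 0.00878, 0.835 and 0.202). Scarna13, which has the length of Rmrp, had 0.25 ± 0.05 in batch 1 (limma adjusted p = 0.000366, under 1.5-fold), −0.18 ± 0.07 in batch 2 (0.208) and −0.25 ± 0.10 in batch 3 (0.204) on the log2 scale.

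Short genes were taken as those with up to 350 bases of exon. In batch 3, 38 of 291 tested were called lower and 0 higher, in batch 2, 2 of 319 and 0, and in batch 1, 51 of 329 and 9 (limma, Benjamini-Hochberg). Of all genes, 0.346%, 0.0336% and 3.94% were called lower in batches 3, 2 and 1, and 0.0139%, 0.0941% and 4.03% higher. The number called lower in batch 2 was also 2 by edgeR but 0 by DESeq2, without a filter or with the replicate block. In batches 2 and 3 edgeR and DESeq2 called 0 higher, and 47 and 85 genes had an unadjusted limma p-value under 0.05 in either direction. Of the 38 in batch 3, 34 were among 94 snoRNA and scaRNA genes (median log2 difference −0.67) and 3 among 175 microRNA genes (median 0.13). Of the 51 in batch 1, 39 were among 208 microRNA genes (median −0.41) and 10 among 98 snoRNA and scaRNA genes (median −0.15). By length, the 38 came from the 214 genes of up to 100 bases, 16 of them, and the 65 genes of over 100 and up to 200 bases, 22 of them, with 0 from the 12 genes of 201 to 350 bases. Median log2 differences in these length classes were 0.0102, −0.449 and −0.103 in batch 3, and −0.245, −0.255 and 0.164 in batch 1. Leaving out INTACT replicate 3 of batch 3 took the 38 to 24. Largest among the called in batch 3 were Snora20 (−1.76 ± 0.26, limma adjusted p = 0.000191), Snora23 (−1.67 ± 0.15, 8.56e-08) and Snora35 (−1.51 ± 0.38, 0.0306), all small nucleolar RNAs. In batch 1 they were instead the microRNA genes Mir128-2 (−2.26 ± 0.13, limma adjusted p = 3.97e-12), Mir690 (−1.88 ± 0.30, 2.2e-05) and Mir493 (−1.81 ± 0.34, 0.00014), and in batch 2 the only 2 called were Snora23 (−0.72 ± 0.16, 0.0267) and Mir6516 (−0.66 ± 0.16, 0.0443). Where a microRNA or small nucleolar RNA gene lies within a longer transcript, reads of that transcript cannot be told apart from its own. Host transcripts were not looked up for these lists.

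Protein partners of the RNAs were tested as lists, whose counts stand beside shares of all genes called lower and higher of 3.94% and 4.03% in batch 1, 0.0336% and 0.0941% in batch 2, and 0.346% and 0.0139% in batch 3. Of 18 minor spliceosome proteins tested, 0 were called in any batch by limma, with medians of 0.06, −0.02 and −0.04 on the log2 scale in batches 1, 2 and 3, and the number with an unadjusted p-value under 0.05 was 8, 1 and 2. Leaving out FANS replicate 2 or 4 of batch 1 gave 2 or 1 called higher there. Of 11 proteins of RNase MRP and RNase P, 0 were called by limma, with 4, 0 and 0 at an unadjusted p-value under 0.05 and medians of 0.22, 0.04 and −0.11. Both lists also had 0 calls by edgeR and DESeq2. Of 26 genes for Cajal bodies and small ribonucleoprotein assembly, 2 were called, both higher in INTACT in batch 1: Gemin6, of the SMN complex that loads Sm rings, by 0.98 ± 0.28 (limma adjusted p = 0.00707), and Nhp2, a core protein of H/ACA particles, by 0.72 ± 0.21 (limma adjusted p = 0.00775). Without FANS replicate 3 or INTACT replicate 4, 1 of these was called. Of 31 genes for transcription and 3′ processing of small nuclear RNAs, 1 was called, Cpsf3l, the catalytic Integrator subunit, higher in batch 1 by 0.62 ± 0.08 (limma adjusted p = 8.19e-07). In batch 3, 0 genes of these 4 lists were called by limma, edgeR or DESeq2, with 2, 0, 1 and 6 at an unadjusted p-value under 0.05, and their medians lay between −0.11 and 0.02.

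Targets of U11 and U12 were taken as genes with an intron that starts with A or G followed by TATCCTT on the transcribed strand, 582 of 214841 introns, in 515 genes of the tables. Beside 0.346% of all genes called lower and 0.0139% higher, batch 3 had 0 of 461 tested called in either direction by limma, edgeR or DESeq2, with 60 at an unadjusted p-value under 0.05, and a median log2 difference of 0.00 against 0.00 for all genes (limma). Batch 2 had 1 of 464 called, beside 0.0336% of all genes lower and 0.0941% higher: 4930590J08Rik, lower by −1.04 ± 0.21 (limma adjusted p = 0.0149). By edgeR 1 was called, and by DESeq2, with a mean of at least 20 or with the replicate block 0. Batch 1 had 4 of 469 called lower and 13 higher, the largest being Aox1 (1.05 ± 0.38, limma adjusted p = 0.033), Rapgef3 (0.87 ± 0.15, 5.26e-05) and Pfdn5 (0.83 ± 0.17, 0.00042), beside 3.94% and 4.03% of all genes. Counts per gene do not show whether an intron was spliced.

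ATAC-seq, with 3 technical replicates per technique from 1 source, gave a measure of the same loci that had no part in choosing the RNAs. Peaks that touched the window from 250 bases before to 50 after a start were taken, and 49.6% of 31647 annotated starts had such a peak in all 6 libraries. Rmrp, Rnu12 and Rnu11 had 1 in all 6 libraries, and Scarna6 and Scarna3b in 0 of 6, while the starts of their hosts Atg16l1 and Dcaf5 had 1 in all 6. The 90 bases before the starts of the 3 RNAs with a peak are printed 5′ to 3′ on the transcribed strand, with capitals at TCACC, the first letters of the proximal sequence element that small nuclear RNA genes share. They lie at chr4:43493060-43493149 for Rmrp, chr4:132270214-132270303 for Rnu11 and chr15:83149555-83149644 for Rnu12 (mm10, RefSeq genome).
Rmrp promoter: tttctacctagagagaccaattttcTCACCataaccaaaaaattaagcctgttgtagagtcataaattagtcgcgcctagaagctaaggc
Rnu11 promoter: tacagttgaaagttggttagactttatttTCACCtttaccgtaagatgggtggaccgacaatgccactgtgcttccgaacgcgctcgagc
Rnu12 promoter: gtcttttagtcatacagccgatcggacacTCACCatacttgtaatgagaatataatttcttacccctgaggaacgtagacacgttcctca

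TCACC began 65 bases before the start of Rmrp and 61 bases before those of Rnu11 and Rnu12. The motif was chosen after these sequences had been read. Among 32851 promoters of the RefSeq table, 2.91% held it on the transcribed strand between 45 and 75 bases before the start, 7.89% anywhere in the 90 bases on that strand and 16.33% on either strand. A match is letters only and does not show that the element is used.

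Peaks at the Rmrp start had fold enrichments over local background of 20.3, 20.8 and 20.99 in FANS and 17.1, 17.3 and 20.9 in INTACT, higher than 84.8 to 92.2% of the starts with a peak in all libraries. Those at Rnu12 had 12.2, 13.0 and 13.2 in FANS and 9.77, 10.5 and 12.3 in INTACT, near the middle of such starts, and those at Rnu11 had 4.19, 4.34 and 4.403 in FANS and 4.68, 4.74 and 5.36 in INTACT, higher than only 1.43 to 9.52% of them. In all 6 libraries the peak at Rmrp also covered the Ccdc107 start, and that at Rnu12 the Poldip3 start, so the height cannot be given to 1 gene of a pair. INTACT minus FANS was −2.24 for Rmrp, −1.94 for Rnu12 and 0.62 for Rnu11, with two-sided exact permutation p of 0.3, 0.2 and 0.1, and 0.3 for each after adjustment over the 3 loci. The smallest p that 3 libraries against 3 allow is 0.1. Over all starts with a peak in every library, the median height was 14.6 to 14.8 in FANS and 11.0 to 13.3 in INTACT. The called peak nearest to Scarna3b was 472 to 490 bases away in FANS and 1717 to 3524 in INTACT, and for Scarna6 it was 810 to 1473 and 792 to 1479 bases away. The paper reports fewer peaks on average in INTACT than in FANS libraries. A site missed by peak calling in INTACT thus cannot be told apart from one that is absent.

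**Figure D5:**
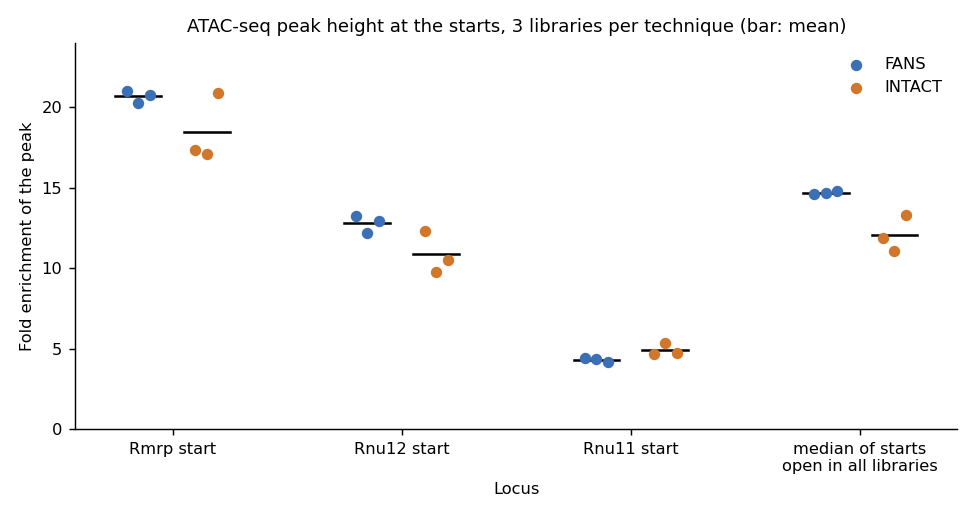
Fold enrichment of the ATAC-seq peak at 3 starts in each of 3 FANS (blue) and 3 INTACT (orange) libraries, with bars at the means, beside the median over all starts that had a peak in all libraries. Rmrp lies at 17.1 to 20.99 and Rnu11 at 4.19 to 5.36, and at Rmrp and Rnu12 the ranges of the techniques overlap.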

How the data were processed

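For RNA-seq, the authors used STAR (mm10) for alignment, molecular identifiers to discard duplicates, HTSeq for unique reads per gene and DESeq size factors per batch. The deposited RNA-seq values are thus a signal, normalized counts, comparable within a batch. Summary lines of the tables were left out. Low values gave the worth of 1 read per library, and 100.0% of 743483 values then came out as whole reads (tolerance 0.02 reads beside rounding). For ATAC-seq, the deposited peak lists hold the fold enrichment (a ratio) and the −log10 q-value of each peak, as the authors' MACS2 wrote them per library.

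For each batch, INTACT was set against FANS using limma 3.58.1 (R 4.3.3; trend, log2(normalized count + 1), mean of at least 5, Benjamini-Hochberg). The fit was tested on simulated data. edgeR 4.0.16 and DESeq2 1.42.0 on whole reads, other pseudocounts, scalings, filters, a replicate block and leaving out each library were alternatives. Peaks were compared with exact permutation tests (scipy 1.17.1), and copies were sought with BLAST 2.17.0. Of 33 RNA libraries in the labels, 31 were used; FANS replicate 3 and INTACT replicate 5 of batch 2 were not analysed here. The smallest chi-square per gene between 2 libraries of a group was 1.78, over 70 pairs, so none was taken as a duplicate.

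The RNAs, gene lists and tests were chosen with earlier results of these data known. Named by rule were the 5 RNAs, hosts and overlapping genes, called genes of the list of other short nuclear RNAs, the 3 largest calls of each other list per batch, and the 3 genes most like each RNA. The length classes, the divergent neighbours, Rpph1, Scarna13 and Snord17 were added after values or annotation were seen. Lengths were matched for 24233 genes. Whether reads were counted by strand is not given in the sources used here.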

Additional observations from a re-analysis of the deposited data

Results flagged for a closer look

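Among 54 groups of values searched, 4 held a library far from the rest by Dixon's criterion, and chance alone gives about 1 in 20. In batch 1, FANS replicate 2 had 58.85 normalized counts of Rnu11, above the other FANS libraries at 39.52 to 42.44. In the same batch INTACT replicate 3 had 313.48 of Scarna6, against 201.61 to 217.22 in the other INTACT libraries. Poldip3, the divergent neighbour of Rnu12, had 260.44 in INTACT replicate 4 of batch 1 and 254.84 in FANS replicate 2 of batch 2. No cause of these values was tested.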

How the results depend on the processing

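Of 1391 alternative values for 77 results, 1324 were taken as unchanged. Differences in this number kept direction and side of the threshold or stayed within the spread. Counts of genes called were taken as unchanged if equal to or within 1.5-fold of the main count, so smaller shifts lie among the 1324. All 275 for the 5 RNAs stayed within 1 SD, 13 with the other sign, 12 of these in batch 1. In batch 2 the replicate block, which keeps 3 libraries per technique, moved Rmrp from −0.63 to −0.4066 and Scarna6 from −0.83 to −0.4941, and the same libraries without the block gave the same values, so the change comes from the libraries kept. Leaving out 1 library gave log2 differences in batch 3 of −0.89 to −0.62 for Rmrp, −1.004 to −0.65 for Rnu11, −1.21 to −0.93 for Rnu12, −0.93 to −0.63 for Scarna6 and −1.47 to −1.26 for Scarna3b. It gave −0.05325 to 0.03813 for Atg16l1 in batch 2 (above 0 if FANS replicate 1 or replicate 2 of either technique was dropped), −0.06 to 0.14 for Poldip3 in batch 3 (−0.06413 without INTACT replicate 2) and 0.48 to 0.67 for Ccdc107 in batch 1, which was called if FANS replicate 1 or either of INTACT replicates 1 and 3 was dropped, and by edgeR (0.587), and had an adjusted p over 0.05 if INTACT replicate 2 or 4 was dropped. In batch 1, leaving out 1 library gave 0 to 2 minor spliceosome genes called higher (2 without FANS replicate 2, 1 without FANS replicate 4), 1 to 2 Cajal body genes higher, 1 to 2 other short nuclear RNAs lower and 0 to 2 higher, 2 to 5 genes with a U12-type intron lower (2 without INTACT replicate 1) and 8 to 13 higher (8 without FANS replicate 4), and 4 to 8 short genes higher. In batch 2 it gave 0 to 2 U12-type genes and 0 to 5 short genes lower (5 without FANS replicate 2), and in batch 3, 24 to 49 short genes lower (24 without INTACT replicate 3) and 0 to 1 higher. With a mean of at least 20, batch 1 had 1 Cajal body gene higher, 1 other short nuclear RNA lower and 1 higher, and 30 short genes lower and 5 higher, and batch 2 had 0 U12-type genes lower. Without a filter, 1 other short nuclear RNA was lower and 0 higher in batch 1, and 0 short genes lower in batch 2. DESeq2 gave 1 other short nuclear RNA lower and 0 higher and 5 short genes higher in batch 1, and 0 U12-type and 0 short genes lower in batch 2. edgeR gave 1 other short nuclear RNA higher in batch 1, and quantile normalization 1 lower. Same-numbered libraries had correlations of −0.07 to 0.11, so the numbers did not pair them, and 3 libraries, all in batch 3, correlated best with their own number. With the replicate block, 1 other short nuclear RNA was lower in batch 1, 0 U12-type and 0 short genes lower in batch 2, and in batch 3, 1 U12-type gene was higher and 60 short genes were lower and 2 higher. Fitting the same libraries without the block, an alternative added after seeing the data, gave 1 short gene higher in batch 3. The causes were not tested. A depth of as few as 16 reads limits Rnu11.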
